A study of Homo sapiens with 6 samples.

Results

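E2F1 peaks were called at 1014 places more than 1 kb from a GENCODE gene start in both DMSO-treated and GSK126-treated MDA-MB-231 cells. These regions are the peaks of the DMSO list whose summit lay more than 1 kb from every transcription start site (TSS) of GENCODE release 44, which overlapped a peak of the GSK126 list by at least 1 bp and which overlapped no peak of untreated cells. They are called shared distal peaks here. They made up 6.46% of the 15703 DMSO peaks and 11.3% of the 8994 DMSO peaks beyond 1 kb from a TSS, and the 3 E2F1 lists held 31035 peaks together. The same GSK126 peak could serve several regions, and 1009 different GSK126 peaks were involved. An overlap with a GSK126 peak was seen for 47% of all DMSO peaks, for 94.1% of those within 1 kb of a TSS and for 11.9% of those beyond. Requiring no peak in untreated cells removed 56 regions from the 1070 with a GSK126 overlap, and these were strong ones, with a median DMSO fold enrichment of 8.91.

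The study used ChIP-seq, in which DNA bound by an antibody target is sequenced, on MDA-MB-231, a cell line of human triple-negative breast cancer. The E2F1 libraries came from untreated cells, from cells kept in DMSO as solvent control for 72 h and from cells exposed for 72 h to 1 µM GSK126, which blocks the methyltransferase EZH2. Trimethylated lysine 27 of histone H3 (H3K27me3) was mapped after a 24 h transduction with control shRNA or with shE2F1, an shRNA against E2F1, and 72 h of puromycin at 2 µg/ml. The groups are all of this line with no other engineered change named, and the H3K27me3 libraries received neither DMSO nor GSK126. How far the shRNA lowered E2F1 was not analysed here. Each condition has 1 library, so differences between conditions carry no replicate check and no p-value is given. The lowest background in a list, meaning the fragments that MACS2 expected at a typical base, was 1.82 in DMSO, 1.70 in GSK126 and 0.668 in untreated cells, so the untreated list, with 1056 peaks, came from a shallower library, and a missing peak there need not mean less E2F1.

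E2F1 is a transcription factor that binds DNA as a dimer with a DP partner and switches on genes of DNA replication and the cell cycle when the retinoblastoma protein releases it. Most of its known sites lie in CpG-rich promoters. EZH2 is the enzyme within the Polycomb complex PRC2 that writes H3K27me3, a mark of silenced chromatin. A peak far from a gene start can be an enhancer, a start that the annotation lacks, or a place where fragments pile up for other reasons, and peak positions alone do not tell these apart.

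The sequences below run from 100 bp before to 100 bp after the DMSO summit in 6 shared distal peaks, read from the plus strand of hg38. They were picked to show the E2F motif on either strand (any heptamer of the set of TTCCCGC, also TTCGCGC, also TTGCCGC and also TTGGCGC), the AP-1 motif (TGANTCA) and the long motif of CTCF, all of which stand in capitals. UPP1, NANOS2, EFNB2 and C11orf68 name 4 of the strongest regions by their nearest protein-coding gene. The other 2 lie near CCND1 and FOS.
UPP1, chr7:48084927-48085127: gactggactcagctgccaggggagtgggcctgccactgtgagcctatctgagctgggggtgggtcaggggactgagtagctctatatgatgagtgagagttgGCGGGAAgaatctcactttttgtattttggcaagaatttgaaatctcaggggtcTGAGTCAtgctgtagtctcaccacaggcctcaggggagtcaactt
NANOS2, chr19:45927810-45928010: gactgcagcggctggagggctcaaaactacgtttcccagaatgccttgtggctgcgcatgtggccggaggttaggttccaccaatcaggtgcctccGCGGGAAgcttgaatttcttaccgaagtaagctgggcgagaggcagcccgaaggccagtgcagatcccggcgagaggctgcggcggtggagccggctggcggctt
EFNB2, chr13:106472172-106472372: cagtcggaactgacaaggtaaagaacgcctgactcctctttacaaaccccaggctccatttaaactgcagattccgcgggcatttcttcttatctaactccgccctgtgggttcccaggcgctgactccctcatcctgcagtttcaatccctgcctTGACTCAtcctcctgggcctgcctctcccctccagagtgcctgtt
C11orf68, chr11:65911847-65912047: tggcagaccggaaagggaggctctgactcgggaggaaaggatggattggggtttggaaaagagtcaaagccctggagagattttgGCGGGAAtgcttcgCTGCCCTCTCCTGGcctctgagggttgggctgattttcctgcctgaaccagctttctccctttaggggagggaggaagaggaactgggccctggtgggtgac
CCND1, chr11:69636601-69636801: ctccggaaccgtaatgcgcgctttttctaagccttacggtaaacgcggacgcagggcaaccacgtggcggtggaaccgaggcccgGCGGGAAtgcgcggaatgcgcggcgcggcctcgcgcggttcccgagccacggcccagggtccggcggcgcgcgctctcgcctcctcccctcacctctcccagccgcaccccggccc
FOS, chr14:75277351-75277551: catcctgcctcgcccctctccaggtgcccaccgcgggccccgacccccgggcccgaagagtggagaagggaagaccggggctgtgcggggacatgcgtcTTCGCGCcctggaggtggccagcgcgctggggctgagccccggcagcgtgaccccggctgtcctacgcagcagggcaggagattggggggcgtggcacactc
The centre of the E2F match lay within 12 bp of the summit in all 5 windows that have such a match. In the UPP1 window an E2F match 5 bp from the summit was joined by an AP-1 match 59 bp from it. The EFNB2 window had no E2F match and an AP-1 match at 59 bp. In the C11orf68 window the E2F match lay at -12 bp, and a CTCF match of 14 bp centred at 6 bp covered the summit. A match is a string of letters and not proof of a bound site.

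The E2F motif was common at the shared distal peaks and rare beside them. Of the 1014 such windows, 252 held it, which is 24.9% (95% interval 22.2 to 27.6, exact Clopper-Pearson, as for all shares here, counting error only). It stood in 1.87% of windows 2 kb to either side of the same summits and in 0.976% of genome windows of that length. Shared promoter peaks, which meet the same overlap rules within 1 kb of a TSS, held it in 33.2% (32.0 to 34.5) of 5376 windows. Distal peaks found only in GSK126 held it in 10.99% (9.83 to 12.2) of 2694, and distal peaks found only in DMSO in 1.60% (1.34 to 1.90) of 7924, where the flanks had 0.700%. The 56 regions with an untreated peak as well had it in 60.7%. Where the -log10 q reached 5 in DMSO as well as GSK126, at 504 regions, the share was 44.6%. TTCCCGC was the usual form, present in 190 of the shared distal windows, while TTGGCGC stood in 29, TTGCCGC in 27 and TTCGCGC in 19.

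**Figure D1:**
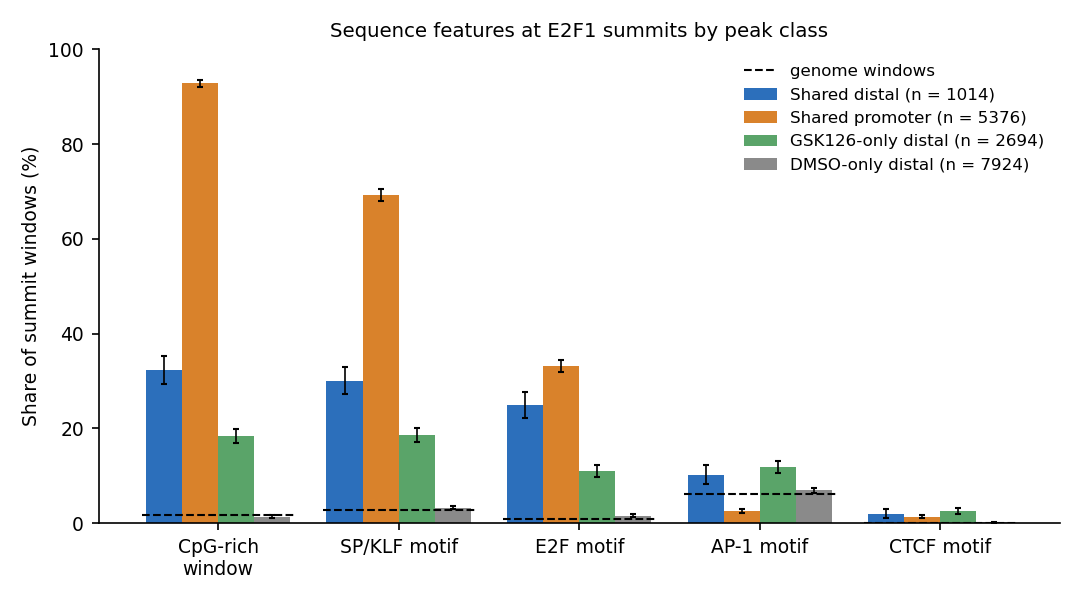
Share of windows of 100 bp on each side of the summit (y axis, percent) that were CpG-rich or held the SP/KLF, E2F, AP-1 or CTCF motif, for 4 classes of E2F1 peaks; bars are shares, error bars exact 95% intervals and dashed lines the share of genome windows. At shared distal peaks the E2F share, 24.9%, lay between the 33.2% of shared promoter peaks and the 1.60% of DMSO-only distal peaks.

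The motif sat at the summit itself. Within 250 bp of the summit 307 regions had an E2F match, and the nearest match was within 50 bp in 214 of them, from 51 to 100 bp in 38 and farther out in 55. The median distance was 22 bp. The 203 regions with an AP-1 match in the same 250 bp had a median distance of 96 bp, with 55 matches within 50 bp, 51 from there to 100 bp and 97 beyond. AP-1 matches had no peak as narrow at the summit, although their share within 100 bp of it, 10.2%, was above the 4.88% of flanks.

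**Figure D2:**
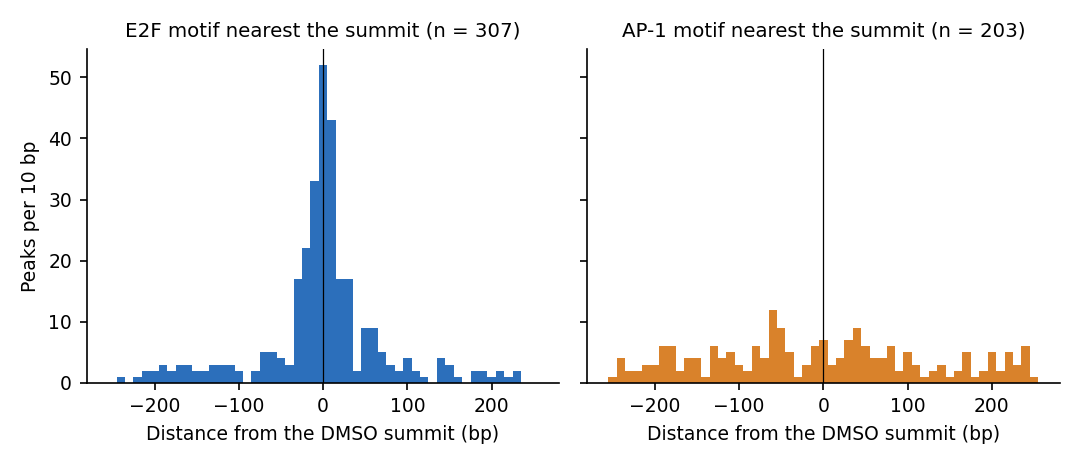
Number of shared distal peaks (y axis, peaks per 10 bp) by distance of the nearest E2F match (left, 307 peaks) or AP-1 match (right, 203 peaks) from the DMSO summit (x axis, bp). E2F matches crowd around 0 with a median distance of 22 bp, and AP-1 matches spread more widely, with a median distance of 96 bp.

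CpG-rich sequence, defined as at least 50% GC with an observed over expected CpG of at least 0.6, was found in 327 windows, or 32.2% (29.4 to 35.2). In the flanks the share was 6.16% and in genome windows 1.81%. Shared promoter peaks were CpG-rich in 92.8% and DMSO-only distal peaks in 1.36%, with GSK126-only distal peaks at 18.3%. The E2F motif stood in 116 of the 687 windows that were not CpG-rich, or 16.9% (14.2 to 19.9), against 1.56% (1.30 to 1.86) of such windows at DMSO-only distal peaks and 8.59% (7.45 to 9.84) at GSK126-only distal peaks. GC content was not matched between these classes. Among CpG-rich windows the E2F share was 41.6% (36.2 to 47.1) at shared distal peaks and 32.7% (31.4 to 34.1) at shared promoter peaks. Among the other windows the order was reversed, with 39.6% (34.7 to 44.7) of 386 at shared promoter peaks. Distal peaks in all 3 lists had 57.9% (40.8 to 73.7) of 38 CpG-rich windows and 66.7% (41.0 to 86.7) of 18 others.

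Other motifs followed 2 patterns. The SP/KLF motif (GGGCGG), bound by a family of factors at CpG-rich promoters, stood in 30.0% of shared distal windows and 6.46% of flanks, and an SP/KLF match overlapped an E2F match in 38 of the 127 regions that had both. The motifs of ETS (CCGGAAG, 2.56%), YY1 (ATGGCGG, 1.87%) and the E-box (CACGTG, 3.75%) were also above their flanks at 0.345%, 0.789% and 1.97%, and all 4 were more frequent at shared promoter peaks, at 69.3%, 10.2%, 8.00% and 5.58%. AP-1, the motif of FOS and JUN dimers, went the other way. It stood in 103 windows, or 10.2% (8.37 to 12.2), against 4.88% of flanks, 6.19% of genome windows and 2.55% (2.14 to 3.01) at shared promoter peaks, while DMSO-only distal peaks had 6.90% (6.35 to 7.48). GSK126-only distal peaks had 11.8% (10.6 to 13.1) and distal peaks in all 3 lists 10.7% (4.03 to 21.9), so the AP-1 share was not particular to the shared distal peaks. Its distance from shared promoter peaks was smaller once windows were split by CpG content. Among CpG-rich windows AP-1 stood in 3.36% (1.69 to 5.94) at shared distal peaks and 2.12% (1.74 to 2.56) at shared promoter peaks. Among the other windows it stood in 13.4% (10.9 to 16.2) and 8.03% (5.52 to 11.2). Both E2F and AP-1 matches were present in 35 regions.

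CTCF, the factor that bounds chromatin loops, had its long motif in 19 regions, or 1.87% (1.13 to 2.91), against 0.148% of flanks and 0.101% of genome windows. An E2F match was present in 14 of these 19, among them the 3 strongest, near C11orf68, INSIG1 and DLG5. The CTCF share was 2.49% (1.93 to 3.15) at GSK126-only distal peaks, 1.38% (1.08 to 1.73) at shared promoter peaks and 0.177% (0.0966 to 0.296) at DMSO-only distal peaks. TEAD (GGAATG, 13.5% against 11.5% in flanks) and RUNX (TGTGGTT, 3.94% against 3.90%) stayed near their flanks. NFY (CCAAT) was somewhat below its flanks, at 23.7% (21.1 to 26.4) against 27.1%. Forkhead (TGTTTAC, 2.07% against 2.47%) and STAT (TTCCNGGAA, 0.592% in either) stayed near theirs. NRF1 (GCATGCGC) stood in 7 windows (0.690% against 0.296% in flanks) and CRE (TGACGTCA) in 6 (0.592% against 0%). The long NF-kB motif stood in 10 (0.986% against 0.444%). The long B box of tRNA genes stood in none, which allows a share of up to 0.363%. Genome windows held these 9 motifs at 10.96%, 3.80%, 27.3%, 3.12%, 0.463%, 0.294%, 0.0692%, 0.301% and 0.00835%, in the order of naming. SP/KLF, ETS, YY1 and the E-box stood in 2.85%, 0.466%, 0.515% and 1.85% of them.

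The shared distal peaks were moderate in strength. The median fold enrichment was 4.77 in DMSO and 5.19 in GSK126, with a DMSO range from 2.44 to 23.6. Between 9 and 331 fragments covered the DMSO summit, with a median of 19. The median DMSO fold was 5.52 at shared promoter peaks and 4.20 at DMSO-only distal peaks, whose highest fold was 8.16. The regions were chosen by their DMSO and GSK126 peak calls, so these strengths helped to select them and are given as a description with no test.

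The strongest region lay 3601 bp upstream of UPP1, which encodes uridine phosphorylase, at chr7:48084651-48085210. Its fold was 23.6 in DMSO, from 77 summit fragments, and 44.6 in GSK126, from 139, and it carried no H3K27me3 peak in either shRNA library. The region 13132 bp upstream of NANOS2, a germ-cell RNA-binding protein, at chr19:45927722-45928291, followed with folds of 23.2 and 44.1 and 122 and 221 fragments. In both regions the value in GSK126 was the higher, and in the NANOS2 region an H3K27me3 peak was called only in shE2F1, at a fold of 6.92. The next regions were near EFNB2, an ephrin ligand (20.6 in DMSO and 26.5 in GSK126), SFN, the cell cycle inhibitor 14-3-3 sigma (20.3 and 33.0), C11orf68 (17.5 and 26.9) and IFI16, a sensor of DNA (17.0 and 37.8). FAM240C (17.0 and 21.1), SSC5D (15.8 and 19.6), TXK, a tyrosine kinase of T cells (15.2 and 27.8), and USP22, a deubiquitinase (14.9 and 25.2), completed the 10 strongest. The TSS of the named gene was far off for EFNB2 (44175 bp), FAM240C (167655 bp) and USP22 (96530 bp). For the others it lay from 1928 to 13132 bp away. All 10 were higher in GSK126, where 93.3% of all DMSO peaks with a GSK126 overlap were, and both folds had ranked them. An E2F match stood in 8 of the 10, and EFNB2 and FAM240C had none. The E2F share was 24.9% over all shared distal peaks and 54.7% in the highest of 4 groups by DMSO fold.

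With AP-1 matches the strongest regions were those of UPP1 and EFNB2, then an intron of NAV2, a neuron navigator protein (folds of 13.6 in DMSO and 25.2 in GSK126), an intron of ARHGAP42 (11.8 and 22.1) and 4527 bp upstream of SEPTIN1 (11.1 and 18.2). Of these 5 regions only that of UPP1 had an E2F match as well.

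The fold was higher in GSK126 than in DMSO at 716 of the 1014 shared distal peaks, or 70.6%, against 93.3% of all 7385 DMSO peaks with a GSK126 overlap. The median log2 ratio was 0.28 (0.24 to 0.33, the order-statistics 95% interval of the median, which covers spread over regions and not between replicates), whereas shared promoter peaks had 0.71 and all shared DMSO peaks 0.70. The middle 90% of regions ran from -0.47 to 1.13. The median was 0.62 in the 504 regions whose -log10 q reached 5 in DMSO as well as GSK126, 0.15 in the 691 beyond 5 kb from a TSS and 0.081 in the 617 with a local background of at most 2 times the lowest. The ratio reached 2-fold in 96 regions, 9.47% of them against 17.9% of all shared peaks. It fell to 2-fold lower or beyond in 2, which were also the only 2 among all 7385 shared peaks, or 0.0271%. Those 2, named after their values were seen, lay at chr20:31164642-31165716, nearest DEFB115 at 92405 bp, with folds of 7.41 and 3.06, and at chr10:41912496-41914177, nearest ZNF33B at 681949 bp, with 5.50 and 2.65. Their summit fragments fell by less than 2-fold, from 20 in DMSO to 13 in GSK126 and from 41 to 26. The GSK126 summit of the DEFB115 region lay 546 bp away, in a peak with a -log10 q of 2.16. The shared distal peaks thus stood lower on this scale than the promoter peaks of the same 2 libraries.

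**Figure D3:**
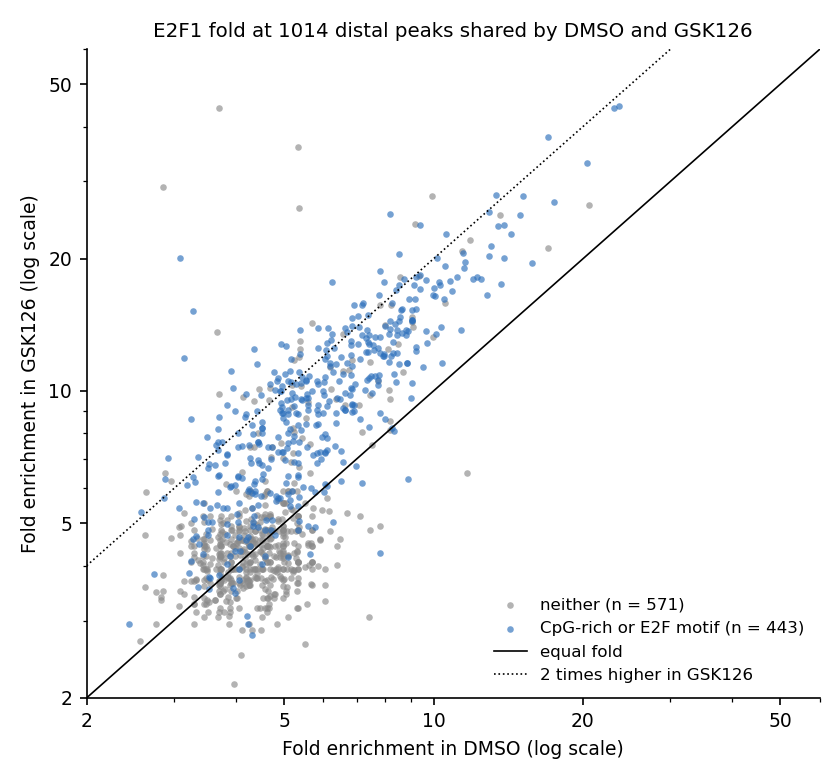
Fold enrichment of E2F1 in DMSO (x axis, log scale) and GSK126 (y axis, log scale) at the 1014 shared distal peaks; blue points are CpG-rich or hold the E2F motif, gray points do neither, the solid line marks equal fold and the dotted line 2 times higher in GSK126. Blue points lie mostly above the solid line, at 418 of 443, and gray points on both sides, with 298 of 571 above.

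The sequence divided the shared distal peaks into 2 kinds, a division made after the values were seen. In the 443 regions that were CpG-rich or had the E2F motif, 94.4% were higher in GSK126, where 93.3% of all shared DMSO peaks were. Their median log2 ratio was 0.67 (0.62 to 0.71), with median folds of 5.61 in DMSO and 9.24 in GSK126. In the other 571 regions 52.2% were higher, the median log2 ratio was 0.03 (-0.01 to 0.06), and the median folds were 4.40 and 4.38. The summits of the 2 libraries lay a median of 27 bp apart in the first kind and 167 bp in the second, and the median distance to a TSS was 4918 and 26053 bp. The motif and CpG content each went with the difference. The log2 ratio was 0.67 (0.57 to 0.76) in 116 regions with the motif and no CpG-rich window, 0.60 (0.53 to 0.68) in 191 CpG-rich regions without the motif and 0.72 (0.67 to 0.76) in 136 with both. AP-1 matches without an E2F match went with a ratio of 0.31 (0.19 to 0.59) in 68 regions. That lay between the 0.72 (0.67 to 0.76) of 217 regions with an E2F match only and the 0.13 (0.08 to 0.17) of 694 with neither. A cut on the q-values of both lists gave a similar division, but GSK126 values enter both the cut and the ratio. The 504 regions whose -log10 q reached 5 in both lists had a median log2 ratio of 0.62 (0.58 to 0.67), with 90.3% higher in GSK126. The other 510 had 0.01 (-0.03 to 0.06), with 51.2% higher. In 4 groups of equal size by DMSO fold alone, lowest first, the median log2 ratio was 0.26, 0.07, 0.09 and 0.66. Both lists chose the regions, and the part of strength in the 2 kinds was not tested.

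The E2F share rose with strength. It was 8.27%, 12.6%, 23.7% and 54.7% in 4 groups of equal size ordered by DMSO fold, lowest first, and the AP-1 share was 6.69%, 7.51%, 6.72% and 19.7%. Local background, the number of fragments expected around a peak relative to the lowest in the list, was higher in the first kind of region, with a median of 2.18 against 1.37, and its part in the ratios was not tested.

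The regions nearest the 1 kb limit were the ones most like promoters. The CpG-rich share was 63.5% in the 170 regions from 1 to 2 kb from a TSS and 4.66% in the 193 beyond 50 kb, and the E2F share went from 42.4% to 7.25%. The median log2 ratio in the 5 distance classes was 0.60, 0.58, 0.43, 0.16 and -0.04, while the AP-1 share stayed between 7.06% and 14.4%. The median distance was 11882.5 bp to a TSS of any gene and 36356.5 bp to that of a protein-coding gene. Just outside the limit lay regions near H1-2 (1005 bp, folds of 10.4 in DMSO and 11.6 in GSK126) and KAT6A (1010 bp, 6.39 and 9.63). Just inside it, and so not counted, were peaks near SLC22A23 (996 bp, 6.19 and 8.60), H2BC21 (990 bp, 6.70 and 11.6) and UBASH3B (987 bp, 8.65 and 13.1).

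**Figure D4:**
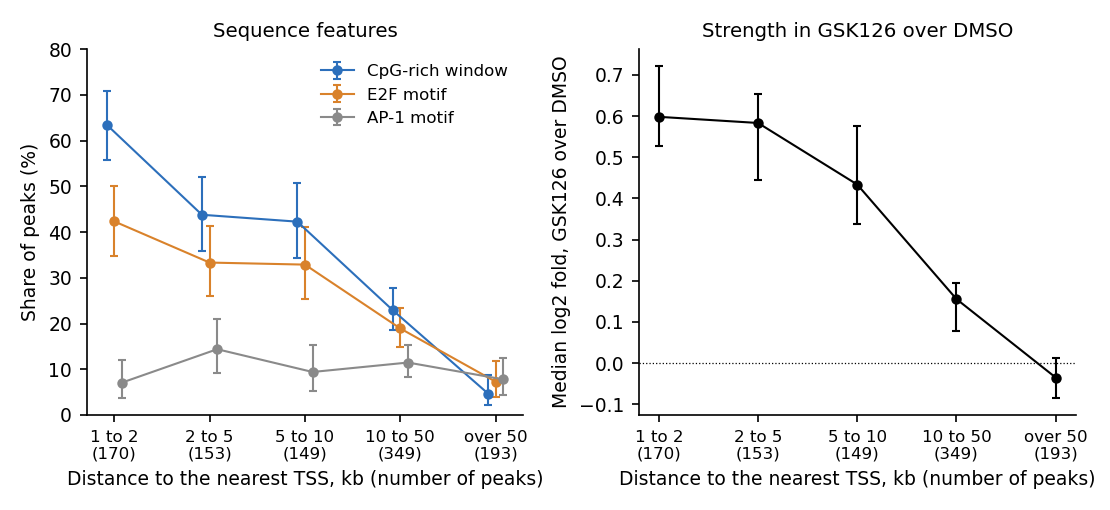
Shared distal peaks by distance to the nearest TSS (x axis, kb, with the number of peaks): left, share of peaks (y axis, percent) with a CpG-rich window, E2F motif or AP-1 motif and exact 95% intervals; right, median log2 ratio of fold in GSK126 over DMSO with its order-statistics interval. CpG-rich windows fall from 63.5% to 4.66% and the median ratio from 0.60 to -0.04.

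Most of the regions lay in introns (508, 50.1%) or between genes (441, 43.5%), and 34 were in coding exons and 31 in UTR or noncoding exons. The nearest TSS belonged to a protein-coding gene in 450 regions (44.4%) and to a lncRNA gene in 337 (33.2%). A start that RefSeq lists lay within 1 kb of at least 32 regions, a lower limit because RefSeq starts were not used for some chromosomes, among them that of MRGBP at 271 bp from an uncharacterized locus. A DMSO promoter peak had its summit within 10 kb of 121 regions, or 11.9%, against 2.78% of DMSO-only distal peaks.

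Among regions whose -log10 q reached 5 in DMSO as well as GSK126, the 5 highest ratios of summit fragments, each count divided by the lowest background of its list, belonged to peaks near H2BC17, MLLT6, QSER1, MRGBP and TMED2. At H2BC17, a histone H2B gene, the fold was 5.34 in DMSO and 36.0 in GSK126. In all 5 the GSK126 summit was more than 1 kb away, at 1020, 1277, 1712, 2346 and 1068 bp, so the 2 values were measured at different summits. Over all regions the median shift was 80 bp, 690 were within 200 bp and 20 beyond 1 kb, and in 32 the GSK126 summit lay within 1 kb of a TSS. The regions near CDT1, a replication licensing factor (3.69 and 44.2), and RRM1, a subunit of ribonucleotide reductase (2.85 and 29.2), are of this kind, with summits 1134 and 1377 bp apart.

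The 5 lowest ratios belonged to 3 regions nearest DEFB115 on chromosome 20, a region on chromosome 16 nearest SHCBP1 and an intron of a noncoding gene near NTM on chromosome 11. These genes were far off, with DEFB115 from 189315 to 2415176 bp away, SHCBP1 193537 bp and NTM 88633 bp. At chr20:31060320-31061759 the fold was 11.7 in DMSO from 50 fragments and 6.50 in GSK126 from 26. At chr16:46389182-46390863 it was 4.09 and 2.503, from 331 and 205 fragments. Local background there was 44.1 times the lowest in DMSO, and it was 24.6 times at chr20:31068013-31069257 and 6.99 times at chr20:28842240-28842852, against a median of 1.77. None of the 5 had an E2F or AP-1 match.

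Genes of the cell cycle were among the neighbors. Of 38 E2F and cell cycle genes, 6 were the nearest protein-coding gene of a shared distal peak, namely CCND1, CCNE1, CDK6, CDT1, MYC and RRM1. This was out of 7 distal DMSO peaks nearest to a gene of that list, where 11.3% of all distal DMSO peaks were shared distal peaks. Shared distal peaks lay nearer to a TSS than DMSO-only distal peaks, at medians of 11882.5 and 33580 bp. The regions of CDT1 and RRM1 lay 1144 and 1367 bp from one, and the part of distance in the count was not tested. Of the 6 regions 5 were higher in GSK126, where 70.6% of all shared distal peaks and 93.3% of all shared DMSO peaks were. For CDT1 and RRM1 the values come from different summits, as given above. The region 4455 bp upstream of CCND1, encoding cyclin D1, had folds of 8.63 and 13.6, the E2F match printed above and an H3K27me3 peak only in shE2F1, at a fold of 2.83. At 22921 bp past the TSS of CCNE1, encoding cyclin E1, the folds were 3.68 and 8.18. The region 66675 bp upstream of MYC, 2231 bp from the TSS of a lncRNA, had an AP-1 match and folds of 4.26 and 7.46. The region in an intron of CDK6 was the exception, with 5.10 in DMSO and 4.18 in GSK126.

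Some genes of AP-1 factors were neighbors too. Of 20 AP-1, TEAD and target genes, 7 were nearest to a shared distal peak (JUN, FOS, FOSL2, JUND and ATF3, which encode factors of the AP-1 or ATF families, and AMOTL2 and LATS2, which do not), out of 8 distal DMSO peaks nearest to that list, and the fold was higher in GSK126 in all 7, with a median log2 ratio of 0.86, where 70.6% of all shared distal peaks and 93.3% of all shared DMSO peaks were higher. The list was chosen with earlier results known and its count is no independent evidence. The region nearest JUN lay 32383 bp upstream of it, in an intron of LINC01135 and 1996 bp from the TSS of that lncRNA, and had 7.05 in DMSO and 14.8 in GSK126. FOS, 1375 bp upstream of its TSS, had 6.81 and 10.9, and FOSL2, 2006 bp upstream, had 4.91 and 10.0. The AMOTL2 region, at 54535 bp and 1192 bp from the TSS of the lncRNA LINC02004, had 5.09 and 10.5. The ATF3 region (4.12 and 7.48) overlapped an H3K27me3 peak with either shRNA, and the regions of JUND (3.83 and 5.42) and LATS2, a Hippo kinase (4.24 and 5.97), had one only in shE2F1. Counts of this size near named genes are a description, and over all distal DMSO peaks 11.3% were shared distal peaks.

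The other lists had few neighbors. Over all distal DMSO peaks 11.3% were shared distal peaks, and counts this small are a description. None of 33 mesenchymal and basal breast cancer genes was nearest to a shared distal peak, and 6 distal DMSO peaks were nearest to them. Of 13 NF-kB and inflammatory genes only CCL2, a chemokine, was (4.33 and 4.52), from 3 distal DMSO peaks. Of 12 luminal genes, PGR, the progesterone receptor, was nearest to 2 regions (3.74 and 4.98, 3.75 and 3.73), from 8 distal DMSO peaks. Of 9 PRC2 genes EED, a core subunit, had a region in its intron 1482 bp past the TSS, with folds of 9.37 in DMSO and 18.3 in GSK126.

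H3K27me3 was not used to choose the regions. In control shRNA 91 of the 1014 overlapped an H3K27me3 peak, or 8.97% (7.29 to 10.9), against 10.7% of all DMSO peaks. In shE2F1 218 did, or 21.5% (19.0 to 24.2), against 31.3% of all DMSO peaks. A peak was called only in shE2F1 at 152 regions (15.0% against 22.8% of all DMSO peaks), only in control shRNA at 25 (2.47% against 2.18%) and in both at 66. Neither library had one at 771. The increase at shared distal peaks was smaller than at shared promoter peaks, which went from 11.9% (11.03 to 12.8) to 52.2% (50.8 to 53.5), while DMSO-only distal peaks went from 9.48% (8.84 to 10.1) to 15.7% (14.9 to 16.5) and GSK126-only distal peaks from 12.2% (11.03 to 13.5) to 20.4% (18.9 to 22.0).

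The increase was larger where the sequence was CpG-rich. CpG-rich shared distal peaks overlapped an H3K27me3 peak in 7.03% (4.51 to 10.4) in control shRNA and in 32.1% (27.1 to 37.5) in shE2F1, and the others in 9.90% (7.77 to 12.4) and 16.4% (13.8 to 19.4). At CpG-rich shared promoter peaks the shares were 12.2% (11.3 to 13.1) and 54.0% (52.6 to 55.4), so the shared distal peaks were lower in shE2F1 also among CpG-rich windows. CpG-rich DMSO-only distal peaks had 16.7% (10.2 to 25.1) and 20.4% (13.2 to 29.2). CpG-rich GSK126-only distal peaks went from 8.72% (6.38 to 11.6) to 23.7% (20.0 to 27.7), and the 38 CpG-rich distal peaks in all 3 lists from 2.63% (0.0666 to 13.8) to 21.1% (9.55 to 37.3). Regions with an E2F match went from 7.14% to 20.6%, and regions without one from 9.58% to 21.8%. CpG-rich regions went from 9.56% to 33.1% with the E2F match and from 5.24% to 31.4% without it. The other regions went from 4.31% to 6.03% with the E2F match and from 11.03% to 18.6% without it. Regions with an AP-1 match went from 4.85% to 8.74%, and regions without one from 9.44% to 22.9%. These shares compare 2 libraries and not replicated conditions. The shE2F1 list as a whole had 135683 peaks over 179 Mb and the control list 123957 over 143 Mb, and the part of that difference in the shares was not tested.

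**Figure D5:**
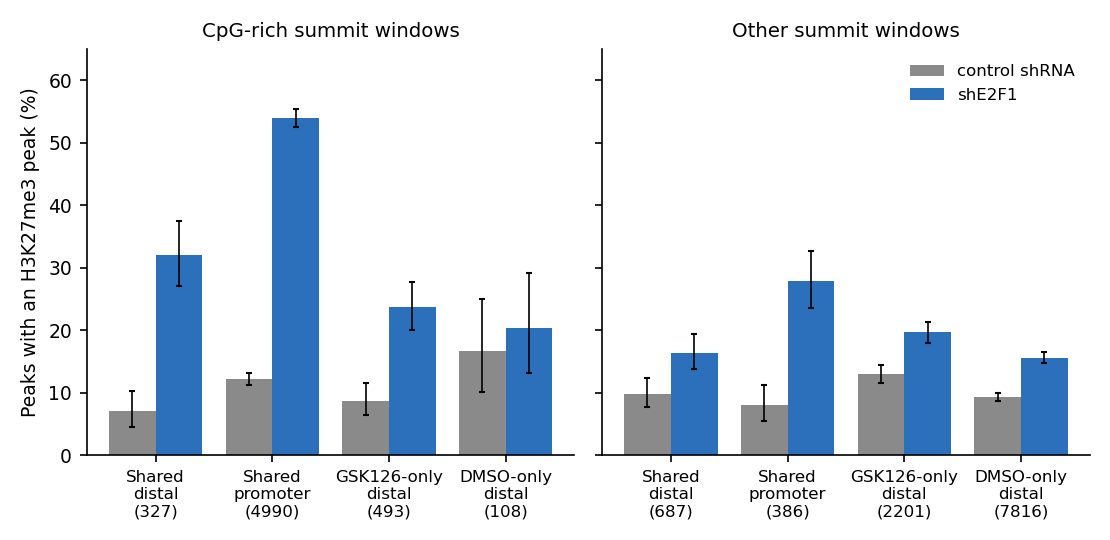
Share of E2F1 peaks that overlap an H3K27me3 peak (y axis, percent) in control shRNA (gray) and shE2F1 (blue), for 4 classes of E2F1 peaks with CpG-rich (left) or other (right) summit windows; numbers of peaks stand in parentheses and error bars are exact 95% intervals. CpG-rich shared distal peaks go from 7.03% to 32.1%, and the others from 9.90% to 16.4%.

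More regions carried the mark in shE2F1, and where both libraries had a peak the median folds were close. At the 66 regions with a peak in both, the median fold was 3.18 in control shRNA and 3.01 in shE2F1, the median log2 ratio was -0.04 (-0.10 to 0.04), and 26 were higher in shE2F1. Most of the H3K27me3 peaks were weak, with a median -log10 q of 1.60 in control shRNA and 1.62 in shE2F1. At a -log10 q of at least 2 the shares were 2.27% and 6.71%. Among the regions with the mark only in shE2F1, those with the highest -log10 q were near LRFN3, a neuronal adhesion protein (fold 8.95), NANOS2 (6.92), SHCBP1 (3.18), IPO7, a nuclear import receptor (6.52), and TICAM1, an adaptor of Toll-like receptors (6.36), of which SHCBP1 is the chromosome 16 region with the high local background. Among those with the mark only in control shRNA, some of the highest -log10 q were near NTM, CELF4, PRIMA1 and CCDC91, with folds from 3.12 to 3.56. The 5 regions only in shE2F1 had a -log10 q from 14.7 to 26.9 and these 4 only in control shRNA from 1.95 to 2.38.

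The 2 kinds of region were spread over the chromosomes differently. Over 23 chromosomes the number per Mb of regions that were CpG-rich or had the E2F motif ranked like that of shared promoter peaks (Spearman 0.84, Pearson 0.96) and not like that of DMSO-only distal peaks (0.08 and -0.13). The number per Mb of the other regions ranked like that of DMSO-only distal peaks (0.96 and 0.97) and less like that of shared promoter peaks (0.28 and 0.10). These values describe chromosomes of the same libraries, with no adjustment for copy number or gene density, and carry no test. Chromosome 19 held 56 regions of the first kind and 7 of the second, and chromosome 11 held 20 and 87. On chromosome 22 15 of 18 distal DMSO peaks were shared distal peaks, and on chromosome 2 60 of 800.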

How the data were processed

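ChIP-seq peak lists of 5 libraries were analysed, 3 of E2F1 and 2 of H3K27me3, with 1 library per condition. The input sample was not used here. E2F1 chromatin was sonicated. For H3K27me3 the sources differ, with sonication in the labels and micrococcal nuclease in the study's methods. The authors trimmed reads with cutadapt 4.5, aligned them to GRCh38 with Bowtie2 2.5.2 and called peaks with MACS2 2.2.9.1, narrow for E2F1 and broad for H3K27me3. The library that served as control for peak calling is not given in the sources used here. Fold enrichment, a ratio of signal to background, and −log10 of the p-value and q-value were deposited by the authors for each peak. The deposited score was not used. Other tools and versions follow the submitters' processing notes.

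From each narrow peak's fold and p-value, whole summit fragments and local background were solved for with a pseudocount of 1, and all peaks of the 3 E2F1 lists gave a whole number within a relative error of 2e-05. The number of fragments limits the precision of each fold. Gene starts came from GENCODE release 44 and RefSeq, sequences from hg38, and 1 in 10 of the tiled genome windows of the same length was searched for motifs. Overlap was 1 bp. Where several GSK126 peaks overlapped, the strongest was used. Shares carry exact Clopper-Pearson 95% intervals and medians order-statistics intervals. Both cover counting error or spread over peaks only. Steps were tested on simulated data with Python 3.11.15, scipy 1.17.1 and pandas 2.3.3.

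Regions were named by rule: the 10 with the highest value of the lower fold, the 5 highest and 5 lowest fragment ratios, the 5 strongest with each of the E2F and AP-1 motifs, the 5 strongest H3K27me3 peaks in only 1 shRNA library, the 3 nearest to 1 kb on each side, the 3 runs with most members, and up to 4 per gene list. Some regions that these rules name are not reported here. Members, motifs and gene lists were chosen with earlier results of these data known, and the AP-1 and cell cycle lists are not independent evidence. The other members of these 2 lists, the strongest CTCF regions and the 2 regions lower in GSK126 by 2-fold were named after their values were seen.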

Additional observations from a re-analysis of the deposited data

How the results depend on the processing

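No paired analysis was possible because each condition has 1 library and no result comes from a test. Of 77 recomputed values 38 stayed within the 95% interval of the reported one, or within 1.5 times for the number of regions, and 39 moved. The median log2 ratio stayed above 0 in every alternative run. A -log10 q of 5 or more in DMSO and in GSK126 left 504 regions, with E2F 44.6%, AP-1 14.1%, CpG-rich 52.6%, H3K27me3 in control shRNA 6.15%, a median log2 ratio of 0.62 and a median TSS distance of 6491.5 bp. A local background of at most 2 times the lowest left 617, with 17.2% E2F, 18.5% CpG-rich, 11.5% H3K27me3 in control shRNA, a ratio of 0.081 and 19138 bp. Beyond 2 kb the values were 21.3% E2F, 25.9% CpG-rich, 0.19 and 16521 bp, and beyond 5 kb 18.7%, 22.0%, 0.15 and 24320 bp. With TSSs of protein-coding genes only they were 28.0%, 44.5%, 0.41 and 28488 bp, and with the DMSO summit inside the GSK126 peak 30.8%, 40.3%, 0.42 and 8848 bp. A GSK126 summit within 200 bp, an alternative chosen after seeing the data, gave 31.4%, 39.1%, 0.41 and 8956 bp. Windows of 50 and 250 bp on each side gave E2F shares of 20.6% and 30.3% and AP-1 shares of 4.64% and 20.0%, which follows from the shorter and longer windows. H3K27me3 peaks at a -log10 q of at least 2 gave 2.27% in control shRNA and 6.71% in shE2F1. Leaving out regions near the RefSeq starts used here or with a GSK126 summit within 1 kb of a TSS, also chosen after seeing the data, moved none of the 8 results. The cause of the other moves was not tested. With 9 fragments at the weakest DMSO summits, small changes at a single region were not detectable at this depth.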

Other observations

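With summits at most 10 kb apart, 120 shared distal peaks formed 56 runs of 2 or more and 894 stood alone. Runs were not counted for other peaks, so these counts do not show whether the regions group more or less than others. The longest run, 5 regions at chr1:181729938-181753095 in CACNA1E, a neuronal calcium channel gene, had folds from 3.54 to 6.16 in DMSO and from 3.69 to 5.34 in GSK126, 1 E2F match and no CpG-rich window. The next were 4 regions near CHD6 at chr20:42129529-42141265 (2.83 to 5.68 in DMSO and 3.39 to 4.52 in GSK126) and 3 in NRXN3 at chr14:78122273-78132190 (3.24 to 4.87 and 3.94 to 5.06), both with no E2F match and no CpG-rich window. A tRNA gene of RefSeq lay within 1 kb of 5 regions, and none of the 1014 windows held the B box motif.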
